A study of Homo sapiens with 4 samples.

Results

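The genes described here are 38 well-established direct transcriptional targets of the tumour suppressor p53, among them CDKN1A, MDM2, TP53I3, PPM1D and GDF15. They were taken by symbol from a deposited expression table, and the death receptors and the BCL2 family were left out. All 38 of the 38 symbols were found among 59533 genes, and all 38 had values in both cell lines. RNA sequencing had been done on 4 libraries of human cancer cells, 1 library per group. The first pair came from HCC1937, a breast carcinoma line, given DAC (decitabine, a deoxycytidine analogue that traps DNA methyltransferases and so lowers DNA methylation) at 0.3 µM over 5 days, and from its untreated counterpart. The second pair came from THP-1, a monocytic leukaemia line, given DAC at 5 µM over 2 days, and from its untreated counterpart. The labels call both lines p53-/- and state that the cells of every group, the untreated ones included, had been infected with p53-R282W, a mutant p53 with a substitution in the DNA-binding domain. No group without the mutant was analysed here, and the promoter driving the mutant and the number of clones are not given in the sources used here.

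p53 is a transcription factor that is stabilised after DNA damage and other stress and binds a paired consensus sequence near its target genes. Its targets stop the cell cycle, repair DNA, change metabolism, start cell death and, through MDM2 and PPM1D, switch p53 off again. Tumour mutants such as p53-R282W are known for impaired binding to these sequences, and several of the targets can also be driven by other factors, including the p53 relatives p63 and p73. The comparison asked how the transcript levels of these targets differed between DAC-treated and untreated cells of each line.

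Values are FPKM, that is, fragments scaled to exon length and to library depth. From the steps between low values, depth came to 18.7 M counted reads in the DAC library of HCC1937 and 18.8 M in the untreated one, and to 19.7 M in the DAC library of THP-1 and 19.5 M in the untreated one. Differences are on the log2(FPKM + 1) scale, DAC minus untreated, which understates the change of genes near or below 1 FPKM. Genes that reached 1 FPKM in either library of a pair were kept for that line, and a gene was said to rise or fall where it differed by at least 2-fold on that scale. Single libraries leave the spread between cultures unknown, and within each line differences carry no p-value. Each ratio is of FPKM, with a 95% exact (Clopper-Pearson) interval from estimated reads that covers counting error only.

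The lines expressed the markers of their labelled tissue. All 13 epithelial and basal breast markers were at 1 FPKM or more in both HCC1937 libraries, with summed levels of 2991 FPKM with DAC and 3413 FPKM untreated, and 1 of them, the basal keratin KRT14, rose to 112 FPKM with DAC, against 14.9 FPKM untreated. In each line 1 marker of the other tissue also rose. Of 13 myeloid markers, 3 in the DAC library of HCC1937 and 1 in the untreated library reached 1 FPKM, with sums of 12.2 and 9.92 FPKM, and LYZ was listed at 0 in both. CSF1R, a macrophage growth factor receptor, rose to 1.54 FPKM with DAC in HCC1937, against 0.22 FPKM untreated (1.06). In THP-1 all 13 myeloid markers reached 1 FPKM in both libraries, with sums of 3195 FPKM with DAC and 3620 FPKM untreated, while 4 epithelial markers with DAC and 3 untreated did so, with sums of 16.4 and 11.8 FPKM and with KRT5 and KRT14 listed at 0. The basal keratin KRT17 rose to 2.75 FPKM with DAC in THP-1, against 0.52 FPKM untreated (1.30). The part of these marker differences in the results below was not tested. In bulk RNA, a lower share of cells expressing a gene and less of its RNA per cell cannot be told apart.

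In the HCC1937 libraries labelled as carrying p53-R282W, 4 of the 38 targets rose with DAC and none fell. TP53I3, an NADPH-dependent quinone oxidoreductase, PGF, the placental growth factor, CDKN1A, the cyclin-dependent kinase inhibitor p21, and PPM1D, the phosphatase WIP1, were the ones that rose. Of the 38 targets 34 were kept, 3 of them (ZMAT3, PGF and ACER2) through the DAC library alone, and the remaining 4 were EDA2R, CYFIP2, SPATA18 and PRDM1. Among all 14058 genes kept in HCC1937, 10.3% rose and 1.44% fell, so that the 11.8% of kept targets that rose lies near the background. In THP-1, 33 of the 38 targets were kept, 4 of them (KITLG, ACER2, PGF and PRDM1) through the DAC library alone, and none rose or fell. There 1.14% of 12075 kept genes rose and 0.364% fell. SFN, TP53INP1, EDA2R, ZMAT3 and SPATA18 were the 5 targets not kept in THP-1.

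**Figure D1:**
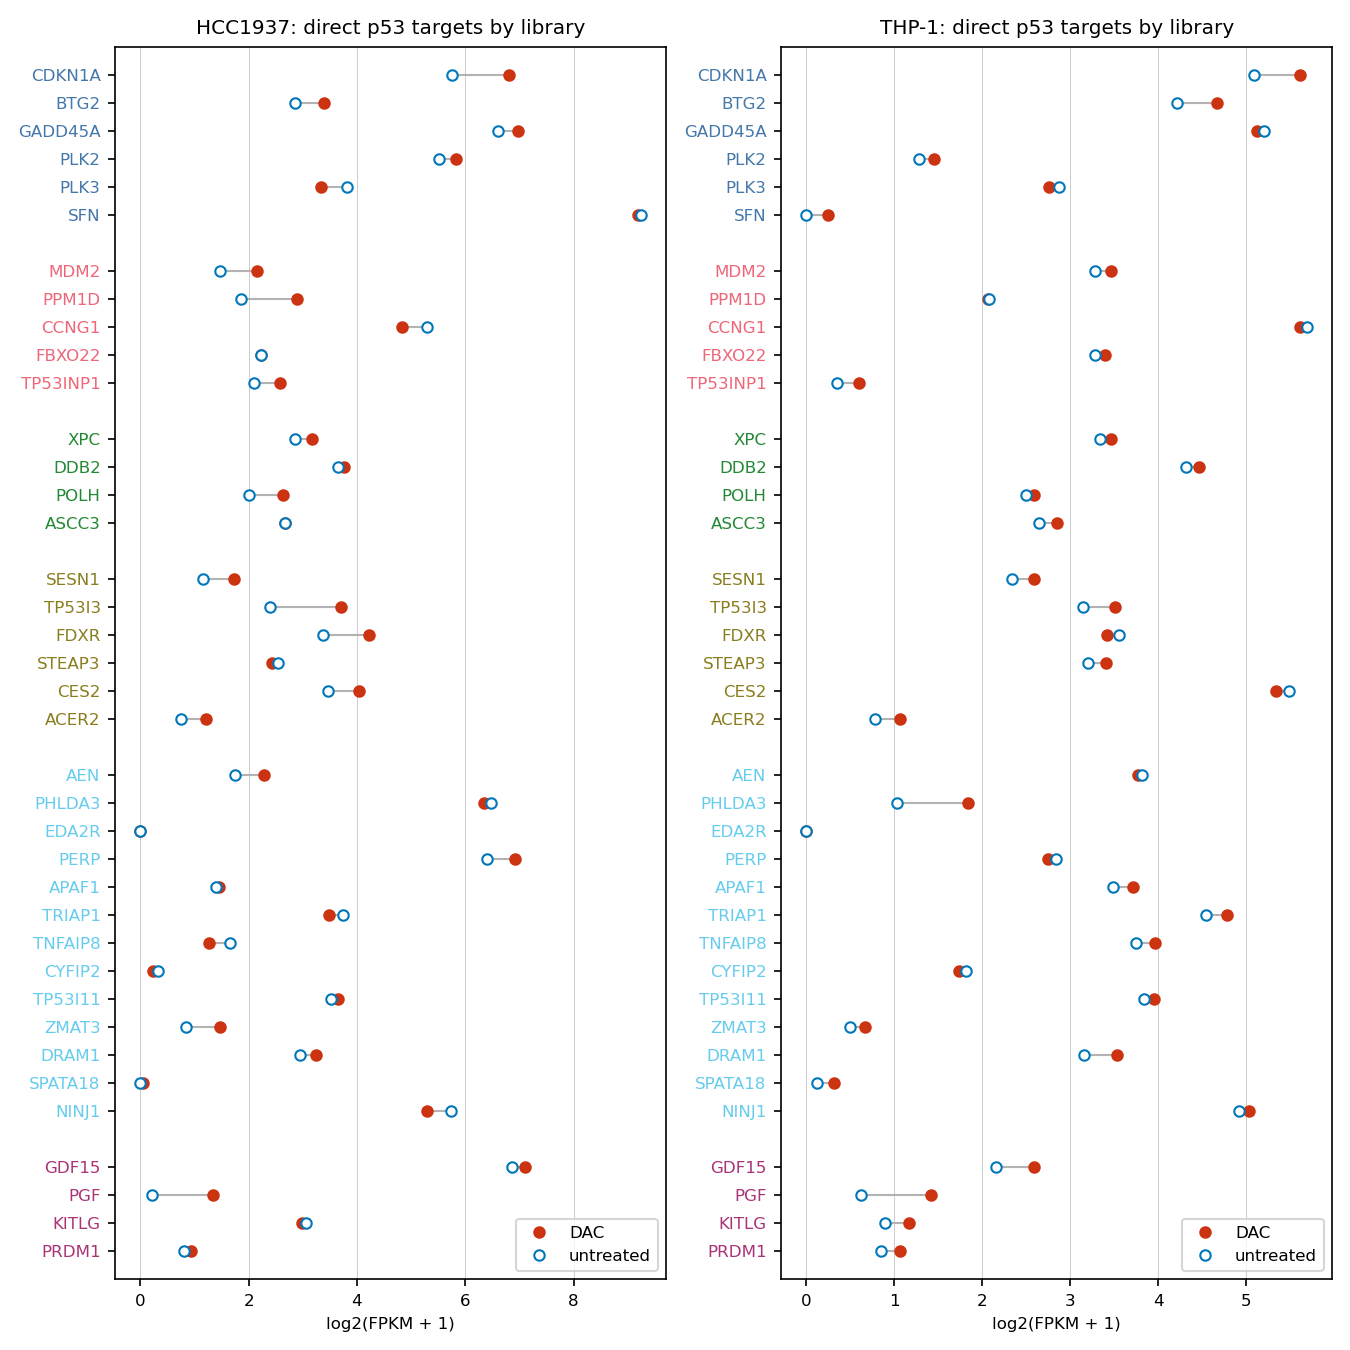
Level of each of the 38 targets in each library, as log2(FPKM + 1), with HCC1937 on the left, THP-1 on the right and genes grouped by role; filled points are DAC and open points untreated, 1 library each, and a line joins the pair. In HCC1937 the widest gaps belong to TP53I3, PGF, CDKN1A and PPM1D, and in THP-1 to PHLDA3 and PGF, while EDA2R is listed at 0 in every library.

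Most of the other differences were smaller than 2-fold but larger than counting error. By the counting interval, a rule chosen after the data had been seen, 22 of the 34 kept targets in HCC1937 had a ratio above 1 (64.7%), 7 a ratio below 1 and 5 an interval that included 1. The same rule put 51.1% of all 13637 genes with a length above 1 and 21.6% below. In THP-1 it put 18 of 33 kept targets above 1 (54.5%), 1 below (CES2) and 14 on neither side, against 33.1% above and 14% below among 11884 genes. The median difference of the kept targets was 0.31 in HCC1937, beside 0.19 for all kept genes, and 0.18 in THP-1, beside 0.07 for all kept genes. At 1.5-fold, 8 targets in HCC1937 (the 4 above, FDXR, MDM2, POLH and ZMAT3) and 2 in THP-1 (PGF and PHLDA3) were higher and none lower, beside 21.9% of all genes higher and 5.91% lower in HCC1937 and 3.3% higher and 1% lower in THP-1. Over all 38 targets, kept or not, 26 differences were above 0 and 11 below in HCC1937, with a median of 0.26, and 28 were above 0 and 9 below in THP-1, with a median of 0.18. Among kept genes, 70.6% of targets and 66.2% of all genes were above 0 in HCC1937, and 72.7% of targets and 65.0% of all genes in THP-1, so these shares lie near the background. Scaling each pair by the median of ratios moved the HCC1937 median of all genes to 0.07 and that of the targets to 0.17, and upper-quartile scaling moved them to −0.06 and 0.02. In THP-1 the targets' medians became 0.13 and 0.14 under these scalings, beside 0.01 and 0.02 for all genes.

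**Figure D2:**
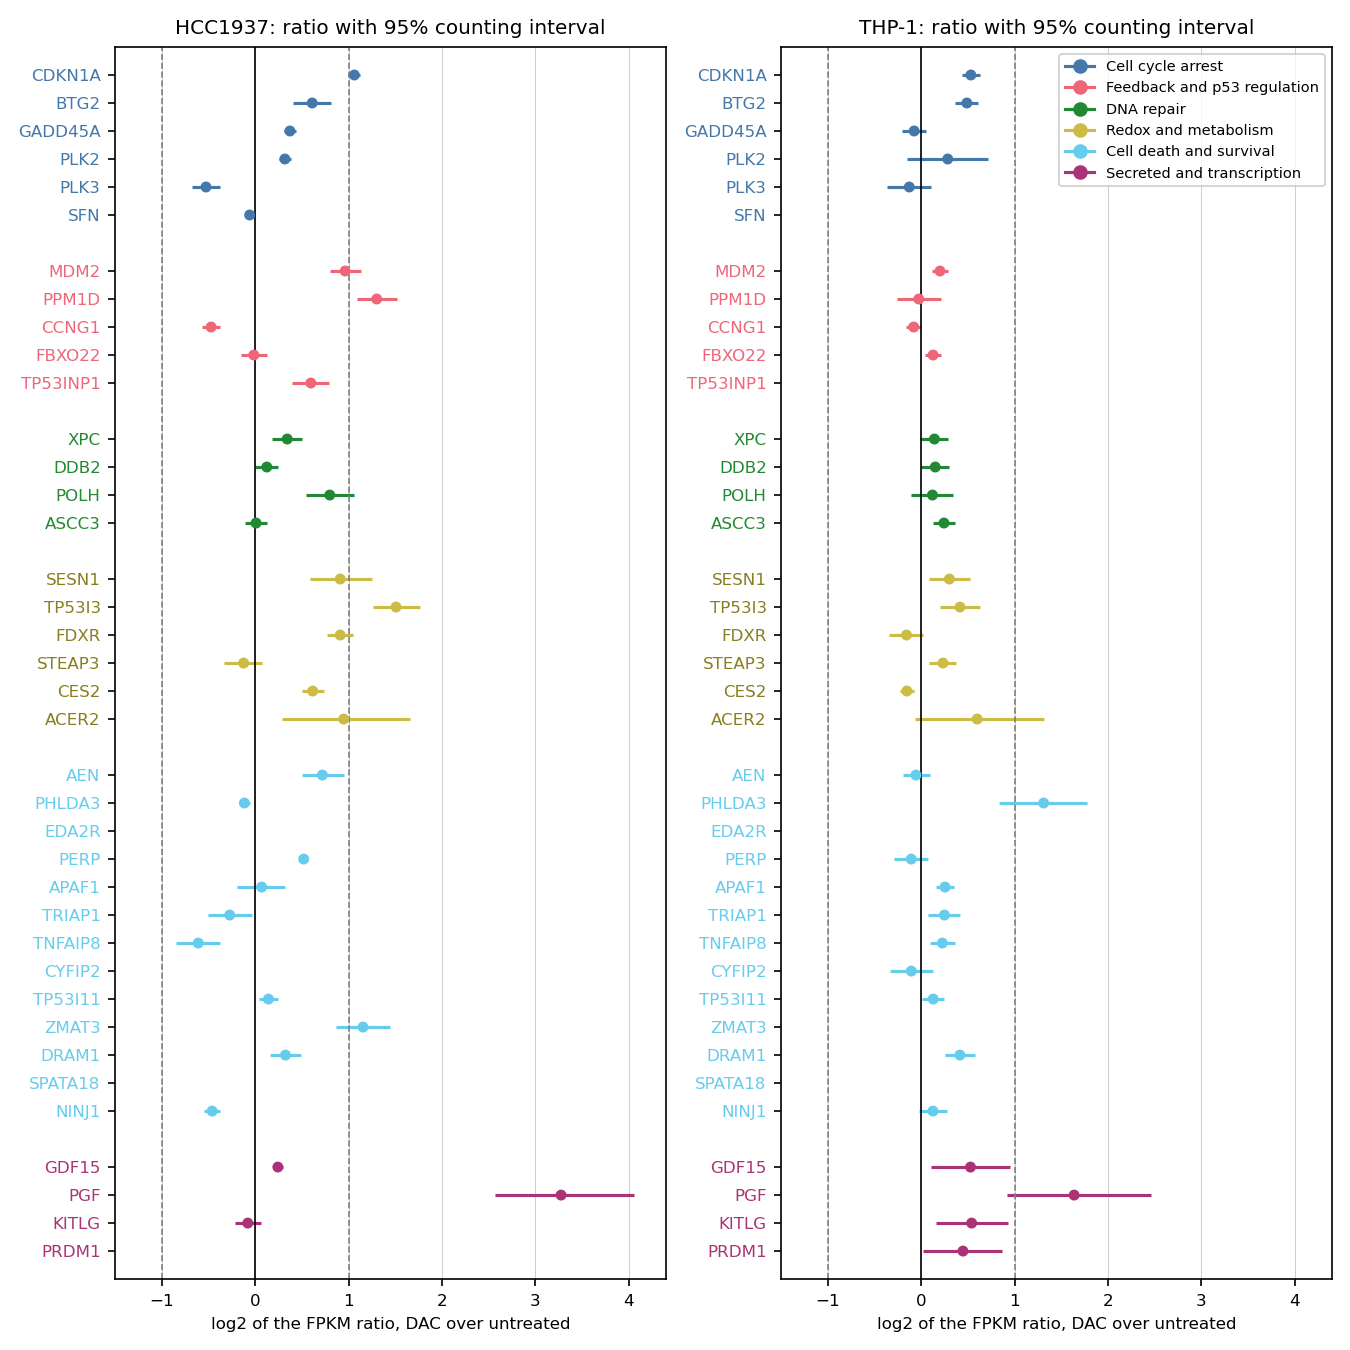
Ratio of FPKM, DAC over untreated, on a log2 axis for each kept target, with its 95% counting interval as a bar; HCC1937 is on the left, THP-1 on the right, and dashed lines mark 2-fold. Genes without a point were not kept in that line. The PGF ratio is the highest in both panels, and the bars of well-expressed genes such as SFN and PHLDA3 in HCC1937 are narrower than their points.

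Among the 6 cell cycle arrest genes, CDKN1A was the one that rose. This gene, which blocks cyclin-dependent kinases and holds cells in G1, lies at chr6:36676460-36687339 on the plus strand of hg38. It rose to 111 FPKM in DAC-treated HCC1937, against 53.03 FPKM in untreated HCC1937, a difference of 1.05 and a ratio of 2.09 (2.00 to 2.18). THP-1 had 47.7 FPKM with DAC and 33.0 FPKM untreated, a difference of 0.52 and a ratio of 1.44 (1.35 to 1.54). Both lines thus had more CDKN1A transcript in the DAC library than counting error allows, and the THP-1 difference stayed under 2-fold. The HCC1937 difference lay just past 2-fold and came to 0.90 under median-of-ratios and 0.74 under upper-quartile scaling. Upstream bases are given for a RefSeq start of CDKN1A that lies inside this span, downstream of the span's first base, as far as the nearest exon: chr6:36678464-36678657 (RefSeq, GRCh38.p14, plus strand), printed because CG pairs, here in capitals, are the sites at which DAC lowers methylation. It holds 20 CG pairs in 194 bases. DNA methylation was not measured in these samples.
CDKN1A: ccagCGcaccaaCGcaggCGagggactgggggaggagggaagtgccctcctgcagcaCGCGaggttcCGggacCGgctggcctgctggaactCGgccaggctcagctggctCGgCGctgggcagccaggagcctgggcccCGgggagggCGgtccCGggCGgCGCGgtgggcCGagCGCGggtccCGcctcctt

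BTG2, an antiproliferative factor that also speeds mRNA decay, had 9.55 FPKM with DAC and 6.26 FPKM untreated in HCC1937, a ratio of 1.53 (1.32 to 1.76). Its THP-1 values were 24.5 FPKM with DAC and 17.5 FPKM untreated, a ratio of 1.40 (1.29 to 1.53). The BTG2 ratio was therefore of like size in both lines, with overlapping intervals. GADD45A, a stress protein that inhibits the CDK1 kinase, had 124 FPKM with DAC and 95.9 FPKM untreated in HCC1937, a ratio of 1.29 (1.24 to 1.35). In THP-1 it had 33.9 FPKM with DAC and 35.7 FPKM untreated, and the interval of its ratio included 1. PLK2 and PLK3 are stress-responsive polo-like kinases, and in HCC1937 they differed in opposite directions. PLK2 had 55.6 FPKM with DAC and 44.6 FPKM untreated there, a ratio of 1.25 (1.19 to 1.30). PLK3 had 9.05 FPKM with DAC and 13.1 FPKM untreated, a ratio of 0.69 (0.62 to 0.77). In THP-1 the intervals of both kinases included 1, at 1.74 FPKM with DAC and 1.43 FPKM untreated for PLK2 and at 5.78 FPKM with DAC and 6.32 FPKM untreated for PLK3. SFN, the 14-3-3 sigma protein that keeps mitotic kinases in the cytoplasm, had the highest level of the 38 targets in HCC1937, with 581 FPKM in the DAC library and 606 FPKM in the untreated one. Its ratio there was 0.96 (0.94 to 0.98). In THP-1 SFN had 0.19 FPKM with DAC and was listed at 0 untreated. The median difference of the arrest genes was 0.34 over 6 in HCC1937 and 0.17 over the 5 kept in THP-1, none of which rose or fell.

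Among genes that feed back on p53, PPM1D rose in HCC1937, while MDM2, with a difference of 0.68, stayed under 2-fold on the log2(FPKM + 1) scale. PPM1D dephosphorylates p53 and the DNA damage kinases that activate it, and lies at chr17:60600183-60666280 on the plus strand of hg38. It had 6.43 FPKM in DAC-treated HCC1937 and 2.61 FPKM in untreated HCC1937, a difference of 1.04 and a ratio of 2.46 (2.12 to 2.87). In THP-1 PPM1D had 3.17 FPKM with DAC and 3.23 FPKM untreated, a ratio of 0.98 (0.83 to 1.16). The PPM1D difference in HCC1937 came to 0.93 under median-of-ratios and 0.79 under upper-quartile scaling. Its promoter, chr17:60599943-60600182 on the plus strand (RefSeq, GRCh38.p14), holds 32 CG pairs in 240 bases, the densest of the printed promoters, with CG again in capitals.
PPM1D: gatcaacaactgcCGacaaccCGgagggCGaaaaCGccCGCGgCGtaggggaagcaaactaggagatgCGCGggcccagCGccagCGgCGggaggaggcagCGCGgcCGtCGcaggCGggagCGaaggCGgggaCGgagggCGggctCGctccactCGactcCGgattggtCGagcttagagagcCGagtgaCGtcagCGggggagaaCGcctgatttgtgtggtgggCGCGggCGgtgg

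MDM2, the ubiquitin ligase that marks p53 for degradation, had 3.45 FPKM with DAC and 1.77 FPKM untreated in HCC1937, a difference of 0.68 and a ratio of 1.95 (1.74 to 2.19). In THP-1 it had 10.0 FPKM with DAC and 8.74 FPKM untreated, a ratio of 1.15 (1.08 to 1.22). Both MDM2 intervals lay above 1 and did not overlap each other. TP53INP1, a nuclear protein that promotes p53 phosphorylation, had 4.94 FPKM with DAC and 3.27 FPKM untreated in HCC1937, a ratio of 1.51 (1.32 to 1.73). In THP-1 TP53INP1 was under 1 FPKM in both libraries, at 0.52 FPKM with DAC and 0.27 FPKM untreated. CCNG1, cyclin G1, which recruits a phosphatase to MDM2, differed the other way in HCC1937, with 27.5 FPKM with DAC and 38.2 FPKM untreated, a ratio of 0.72 (0.67 to 0.77). THP-1 had 47.8 FPKM of CCNG1 with DAC and 50.6 FPKM untreated. FBXO22, a ubiquitin ligase subunit that acts on methylated p53, had 3.66 FPKM with DAC and 3.70 FPKM untreated in HCC1937, and 9.54 FPKM with DAC and 8.74 FPKM untreated in THP-1. Over 10% of its exon bases are shared with a gene on the other strand, and since strand use in counting is not given in the sources used here, reads of the 2 genes cannot be told apart; the same holds for XPC, STEAP3 and CES2. Of the 5 feedback genes, 1 rose in HCC1937 (median difference 0.48), and of 4 kept in THP-1 none did (median 0.05).

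DNA repair genes differed by less than 2-fold in both lines. POLH, the translesion polymerase eta that copies past ultraviolet lesions, had 5.25 FPKM with DAC and 3.02 FPKM untreated in HCC1937, a difference of 0.64 and a ratio of 1.74 (1.45 to 2.07). XPC, which recognises distorted DNA in nucleotide excision repair, had 7.96 FPKM with DAC and 6.28 FPKM untreated there, a ratio of 1.27 (1.13 to 1.42). DDB2, the ultraviolet damage sensor, had 12.6 FPKM with DAC and 11.6 FPKM untreated, a difference of 0.11 that became −0.02 and −0.17 under the scalings. ASCC3, a helicase used in alkylation repair, had 5.41 FPKM with DAC and 5.38 FPKM untreated in HCC1937, with an interval that included 1 and a difference of 0.01 that became −0.12 and −0.26 under the scalings. In THP-1 POLH had 5.03 FPKM with DAC and 4.63 FPKM untreated, XPC 10.0 FPKM with DAC and 9.11 FPKM untreated, and DDB2 21.0 FPKM with DAC and 18.9 FPKM untreated. All 4 differences there were above 0, from 0.10 for POLH to 0.21 for ASCC3, and ASCC3, with 6.19 FPKM with DAC and 5.23 FPKM untreated, was the 1 repair gene with a ratio above 1 by counting, at 1.18 (1.09 to 1.28). The median differences of the 4 repair genes were 0.21 in HCC1937 and 0.13 in THP-1.

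Redox and metabolic targets had the highest median difference of the role groups in HCC1937, at 0.57, and 5 of their 6 ratios were above 1 by counting. TP53I3, whose product is linked to reactive oxygen and apoptosis, lies at chr2:24077433-24085861 on the minus strand of hg38. It had 12.0 FPKM in DAC-treated HCC1937 and 4.23 FPKM in untreated HCC1937, the largest difference of the 38 targets in that line at 1.32, with a ratio of 2.84 (2.40 to 3.39). In THP-1 TP53I3 had 10.4 FPKM with DAC and 7.81 FPKM untreated, a ratio of 1.33 (1.15 to 1.55). TP53I3 kept a difference of at least 2-fold in HCC1937 under both scalings. FDXR, the ferredoxin reductase of mitochondrial iron and steroid metabolism, had 17.7 FPKM with DAC and 9.42 FPKM untreated in HCC1937, a difference of 0.84 and a ratio of 1.88 (1.70 to 2.07). THP-1 had 9.64 FPKM of FDXR with DAC and 10.8 FPKM untreated, a ratio of 0.90 (0.79 to 1.02). The FDXR interval thus lay above 1 in HCC1937 and included 1 in THP-1. SESN1, sestrin 1, which dampens mTORC1 signalling, had 2.33 FPKM with DAC and 1.24 FPKM untreated in HCC1937, a ratio of 1.88 (1.501 to 2.372). In THP-1 SESN1 had 4.99 FPKM with DAC and 4.05 FPKM untreated, a ratio of 1.23 (1.06 to 1.44).

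CES2, a carboxylesterase that hydrolyses esters and prodrugs, split between the lines. It had 15.4 FPKM with DAC and 10.1 FPKM untreated in HCC1937, a ratio of 1.53 (1.41 to 1.66). In THP-1 it had 39.3 FPKM with DAC and 43.7 FPKM untreated, a ratio of 0.90 (0.86 to 0.94). ACER2, an alkaline ceramidase, was near 1 FPKM in every library, with 1.33 FPKM with DAC and 0.69 FPKM untreated in HCC1937, and 1.09 FPKM with DAC and 0.72 FPKM untreated in THP-1. It rests on 56 and 29 estimated reads in the DAC and untreated libraries of HCC1937, so its ratio of 1.93 has a wide interval (1.22 to 3.15). STEAP3, a ferrireductase of endosomal iron uptake, had 4.42 FPKM with DAC and 4.82 FPKM untreated in HCC1937, with an interval that included 1. Its THP-1 values were 9.61 FPKM with DAC and 8.18 FPKM untreated, a ratio of 1.17 (1.06 to 1.30). The group's median difference in THP-1 was 0.23.

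None of the 13 cell death and survival targets rose or fell in either line. In HCC1937, 10 were kept, of which 5 had a ratio above 1 by counting, 4 a ratio below 1 and APAF1 an interval that included 1, with a median difference of 0.09 that became −0.03 and −0.15 under the scalings. ZMAT3, a zinc finger RNA-binding protein that regulates splicing, had 1.78 FPKM with DAC and 0.80 FPKM untreated there, a difference of 0.63 and a ratio of 2.22 (1.82 to 2.73). AEN, an apoptosis-enhancing nuclease, had 3.85 FPKM with DAC and 2.34 FPKM untreated in HCC1937, a ratio of 1.65 (1.41 to 1.93). PERP, a desmosomal membrane protein linked to apoptosis, had 120 FPKM with DAC and 83.9 FPKM untreated, a ratio of 1.43 (1.39 to 1.48). In THP-1 the intervals of AEN and PERP included 1 and ZMAT3 was not kept, at 0.59 FPKM with DAC and 0.41 FPKM untreated. AEN there had 12.6 FPKM with DAC and 13.1 FPKM untreated, and PERP 5.69 FPKM with DAC and 6.13 FPKM untreated.

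DRAM1, a lysosomal membrane protein of autophagy, had ratios above 1 by counting in both lines. It had 8.46 FPKM with DAC and 6.76 FPKM untreated in HCC1937, a ratio of 1.25 (1.11 to 1.41), and 10.5 FPKM with DAC and 7.89 FPKM untreated in THP-1, a ratio of 1.33 (1.19 to 1.49). TP53I11, a p53-induced membrane protein, had 11.6 FPKM with DAC and 10.5 FPKM untreated in HCC1937, a difference of 0.13 that turned to −0.16 under upper-quartile scaling. In THP-1 TP53I11 had 14.5 FPKM with DAC and 13.3 FPKM untreated, a ratio of 1.09 (1.01 to 1.18). APAF1, the apoptosome scaffold that activates caspase-9, had 1.73 FPKM with DAC and 1.65 FPKM untreated in HCC1937, where its difference of 0.04 also turned below 0 under both scalings. Its THP-1 values of 12.1 FPKM with DAC and 10.2 FPKM untreated gave a ratio of 1.19 (1.11 to 1.28).

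Lower ratios in HCC1937 were found for NINJ1, TNFAIP8, TRIAP1 and PHLDA3. NINJ1, which ruptures the plasma membrane late in lytic death, had 38.2 FPKM with DAC and 52.6 FPKM untreated there, a ratio of 0.73 (0.68 to 0.77). In THP-1 NINJ1 had 31.8 FPKM with DAC and 29.1 FPKM untreated, with an interval that included 1. TNFAIP8, an inhibitor of caspase-8 signalling, had 1.42 FPKM with DAC and 2.17 FPKM untreated in HCC1937, a ratio of 0.65 (0.56 to 0.77). THP-1 had 14.6 FPKM of TNFAIP8 with DAC and 12.5 FPKM untreated, a ratio of 1.17 (1.06 to 1.29). TRIAP1, a small survival protein that acts with HSP70 and in mitochondrial lipid transfer, gave the same split. It had 10.2 FPKM with DAC and 12.3 FPKM untreated in HCC1937, a ratio of 0.83 (0.70 to 0.97), and 26.4 FPKM with DAC and 22.2 FPKM untreated in THP-1, a ratio of 1.19 (1.05 to 1.34). PHLDA3, which competes with AKT for membrane lipids, had 80.7 FPKM with DAC and 87.5 FPKM untreated in HCC1937, a ratio of 0.92 (0.89 to 0.96).

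In THP-1 PHLDA3 had 2.58 FPKM with DAC and 1.04 FPKM untreated, the largest difference of the 38 targets in that line at 0.81, with a ratio of 2.48 (1.78 to 3.43) from 134 and 54 estimated reads. PHLDA3 shares 19.1% of its exon bases with another annotated gene on its own strand, and the assignment of those reads is uncertain. CYFIP2, a subunit of the WAVE actin complex, was kept in THP-1 only, at 2.34 FPKM with DAC and 2.52 FPKM untreated, and had 0.17 FPKM with DAC and 0.25 FPKM untreated in HCC1937. SPATA18, a mitochondrial quality protein, had 0.04 FPKM with DAC and was listed at 0 untreated in HCC1937, and had 0.24 FPKM with DAC and 0.09 FPKM untreated in THP-1. EDA2R, a receptor of the tumour necrosis factor family, was listed at 0 in all 4 libraries. In THP-1, 6 of the 10 kept death and survival genes had a ratio above 1 by counting and none below, with a median difference of 0.17.

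Secreted factors and the transcription factor PRDM1 made up the last group. PGF, an angiogenic ligand of the VEGF receptor FLT1, lies at chr14:74941834-74955784 on the minus strand of hg38. It rose to 1.55 FPKM in DAC-treated HCC1937, against 0.16 FPKM in untreated HCC1937, a difference of 1.14 and a ratio of 9.69 (5.93 to 16.7) from 173 and 18 estimated reads. In THP-1 PGF had 1.68 FPKM with DAC and 0.54 FPKM untreated, a ratio of 3.11 (1.89 to 5.52) from 64 and 20 estimated reads. PGF thus had the highest ratio of the kept targets in each line, from low levels, although its interval in THP-1 overlapped that of PHLDA3. PGF has 2 RefSeq start windows of 300 bases, and upstream bases are printed from a single window. This stretch, chr14:74955785-74956014 on the minus strand (RefSeq, GRCh38.p14), holds 16 CG pairs in 230 bases, the sparsest of the printed promoters. Its whole window holds 27 CG pairs, and the other PGF window holds 40.
PGF: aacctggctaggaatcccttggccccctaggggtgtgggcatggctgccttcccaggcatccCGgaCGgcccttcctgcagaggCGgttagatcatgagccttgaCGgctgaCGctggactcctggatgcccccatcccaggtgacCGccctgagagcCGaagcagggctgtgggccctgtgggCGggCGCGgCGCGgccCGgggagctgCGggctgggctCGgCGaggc

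GDF15, a stress cytokine of the TGF-beta family, had 137 FPKM with DAC and 116 FPKM untreated in HCC1937, a ratio of 1.18 (1.14 to 1.23), and its difference of 0.24 turned to −0.07 under upper-quartile scaling. THP-1 had 5.00 FPKM of GDF15 with DAC and 3.47 FPKM untreated, a ratio of 1.44 (1.08 to 1.94). KITLG, the ligand of the KIT receptor, had 6.97 FPKM with DAC and 7.37 FPKM untreated in HCC1937, with an interval that included 1, and 1.25 FPKM with DAC and 0.86 FPKM untreated in THP-1, a ratio of 1.45 (1.12 to 1.90). PRDM1, the repressor BLIMP1, had 0.91 FPKM with DAC and 0.75 FPKM untreated in HCC1937 and was not kept. In THP-1 it had 1.09 FPKM with DAC and 0.80 FPKM untreated, a ratio of 1.36 (1.01 to 1.82). The median difference was 0.24 over the 3 genes kept in HCC1937 and 0.35 over the 4 kept in THP-1, 3 of which were kept there through the DAC library alone.

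Doses and times differed between the lines, so their values are given side by side. Of the 31 targets kept in both lines, 16 had differences above 0 in both (51.6%), 2 below 0 in both (PLK3 and CCNG1), 6 above 0 in HCC1937 and below 0 in THP-1, and 7 the reverse. Among all 9798 genes kept in both lines, 45.9% had differences above 0 in both. By counting, 9 of the 31 targets had ratios above 1 in both lines, where 20.2% of all genes kept in both lines did so. They were CDKN1A, BTG2, MDM2, SESN1, TP53I3, TP53I11, DRAM1, GDF15 and PGF. Of these, TP53I11 and GDF15 had differences below 0 in HCC1937 under upper-quartile scaling. PGF and ACER2 were kept in both lines through the DAC library alone, so their differences could only be above 0.

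**Figure D3:**
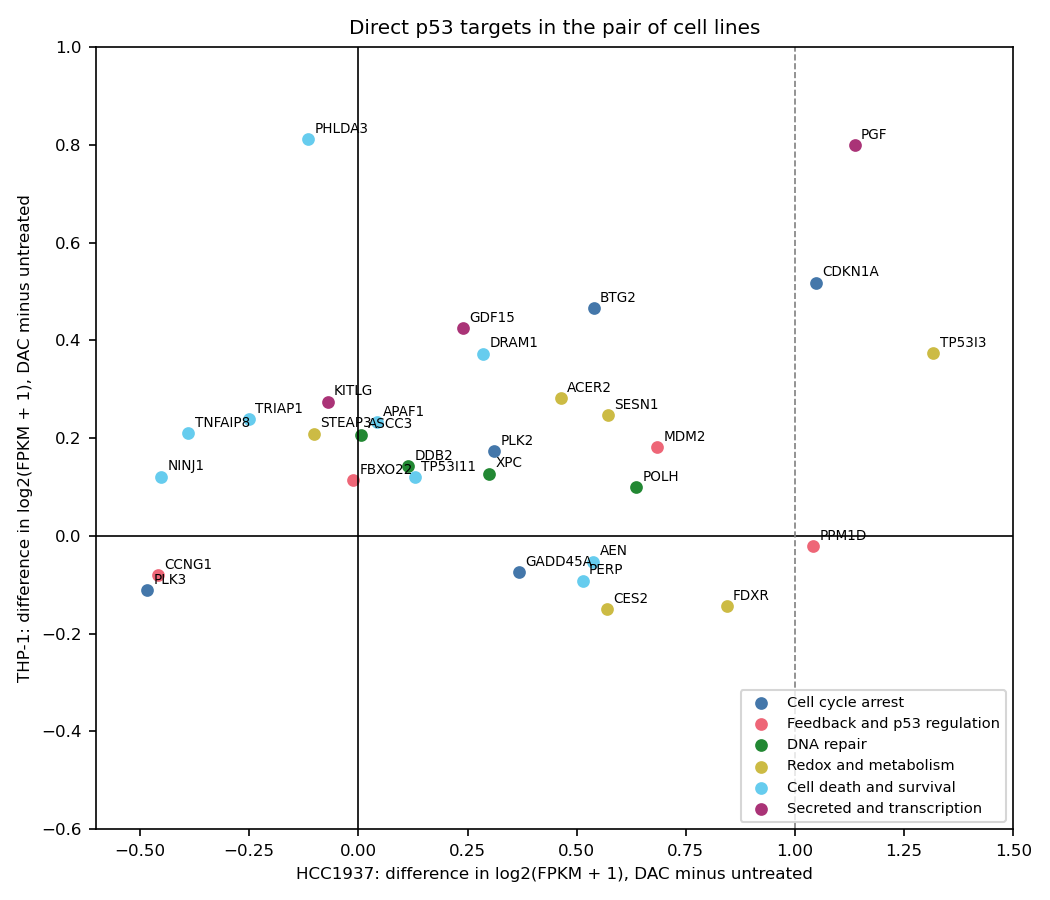
Difference in log2(FPKM + 1), DAC minus untreated, in HCC1937 (x axis) and in THP-1 (y axis) for the 31 targets kept in both lines, coloured by role; the dashed line marks 2-fold in HCC1937. PGF, CDKN1A and TP53I3 lie past that line with positive differences in THP-1 as well, PPM1D lies past it with a THP-1 difference of −0.02, and PHLDA3 stands alone with 0.81 in THP-1 and −0.12 in HCC1937.

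Over both lines, limma with line as a block, which treats the lines as the replicates of DAC on 1 residual degree of freedom, tested 9798 genes and 31 targets. No target had a Benjamini-Hochberg adjusted p under 0.05, and neither did any other gene (0% higher and 0% lower), the lowest adjusted p being 0.642 among the targets and 0.0831 among all genes. At an unadjusted limma p under 0.05, 4 of the 31 targets were higher and none lower, beside 5.14% of all genes higher and 1.23% lower. These were PGF (limma log2 fold change 0.97, SE 0.22), CDKN1A (0.78, SE 0.19), TP53I3 (0.85, SE 0.26) and BTG2 (0.50, SE 0.16), each higher with DAC in both lines. These p-values measure only the spread between these samples.

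Promoter sequences were looked at for the p53 consensus, a pair of arms of 10 bases, each with the core CNNG, separated by at most 1 base. In a window of 250 bases before to 50 bases after each RefSeq start (GRCh38.p14), a match allowed up to 3 mismatches to the whole consensus with both cores intact. The motif is its own reverse complement, so a match covers both strands, and the rule was set after the sequences had been seen. Of 33 targets with a window, 7 had a match (21.2%), beside 2.91% of 27305 genes. The targets were chosen as genes bound by p53, so a higher share is part of how they were chosen. The matches are shown on the gene's strand with both cores in capitals, since they are the bases of these promoters nearest to what p53 is known to bind.
DDB2: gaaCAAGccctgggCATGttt
MDM2: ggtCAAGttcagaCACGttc
AEN: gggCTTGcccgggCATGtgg
SESN1: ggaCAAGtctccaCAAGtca
FDXR: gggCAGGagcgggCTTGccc
CES2: ggcCGTGcccgggCCTGcct
GDF15: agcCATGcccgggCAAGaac

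The DDB2 match, at chr11:47214979-47214999 on the plus strand, had 0 mismatches and a spacer of 1 base. Matches with 2 mismatches were those of MDM2 at chr12:68808923-68808942 and of AEN at chr15:88621306-88621325, both on the plus strand. The other 4 had 3 mismatches each, at chr6:109009018-109009037 (SESN1, minus strand), chr17:74872996-74873015 (FDXR, minus), chr16:66935402-66935421 (CES2, plus) and chr19:18386186-18386205 (GDF15, plus). None of the 4 targets that rose in HCC1937 is among these, which says only that such letters are not in their windows. The 7 targets with a match all had differences above 0 in HCC1937, with a median of 0.57, while DDB2 and GDF15 turned below 0 under upper-quartile scaling. The 22 kept targets with a window and no match had a median of 0.29 there, 14 of them above 0, and 66.2% of all kept genes were above 0 in that line. For the same targets, those kept in HCC1937, the medians in THP-1 were 0.14 with a match and 0.21 without. The set without a match thus includes SFN and ZMAT3, not kept in THP-1, and leaves out CYFIP2 and PRDM1, kept there. The order of the medians was not the same in the 2 lines. CG pairs were counted in the 300-base window of each gene that held the most. The median over genes was 34 for the targets, from 7 in SFN to 45 in TP53I11, and 16 for all genes. The 33 targets had 51 windows and the 27305 genes had 35116, and a gene with more windows can reach a higher count. Both the 4 targets that rose in HCC1937 and the 25 kept ones that did not had a median of 34, with 9 in the window of TP53I3.

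Regulators of p53 included a larger difference than any of the targets. TP63, the p53 relative that governs basal epithelial identity and binds the same consensus, rose to 12.2 FPKM in DAC-treated HCC1937, against 1.56 FPKM in untreated HCC1937, a difference of 2.36 and a ratio of 7.79 (6.77 to 9.02). CDKN2A, whose locus encodes the CDK inhibitor p16 and the MDM2 antagonist ARF, fell to 66.3 FPKM in DAC-treated HCC1937, against 203 FPKM in untreated HCC1937, a difference of −1.60 and a ratio of 0.33 (0.32 to 0.34). These were the 1 that rose and the 1 that fell of 17 kept regulators, whose median difference was 0.42. The table does not separate the p16 and ARF transcripts. The next largest differences in HCC1937 were those of SIRT1, a p53 deacetylase, with 4.68 FPKM with DAC and 2.07 FPKM untreated (0.89), and of EP300, a p53 acetyltransferase, with 8.83 FPKM with DAC and 5.19 FPKM untreated (0.67). In HCC1937 CHEK1, a checkpoint kinase that phosphorylates p53, had 12.9 FPKM with DAC and 8.63 FPKM untreated (0.53), and KAT5, the acetyltransferase TIP60, 6.14 FPKM with DAC and 9.01 FPKM untreated (−0.49).

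In THP-1 none of 16 kept regulators rose or fell, with a median difference of 0.17. TP63 there had 1.25 FPKM with DAC and 1.70 FPKM untreated, a ratio of 0.74 (0.59 to 0.90), and CDKN2A was listed at 0 with DAC and had 0.04 FPKM untreated. TP73, which encodes p73, had 2.19 FPKM with DAC and 2.20 FPKM untreated in HCC1937. In THP-1 TP73 had 11.6 FPKM with DAC and 10.9 FPKM untreated, and the interval of its ratio included 1 in both lines. The part of the TP63 rise in the target values of HCC1937 was not tested.

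**Figure D4:**
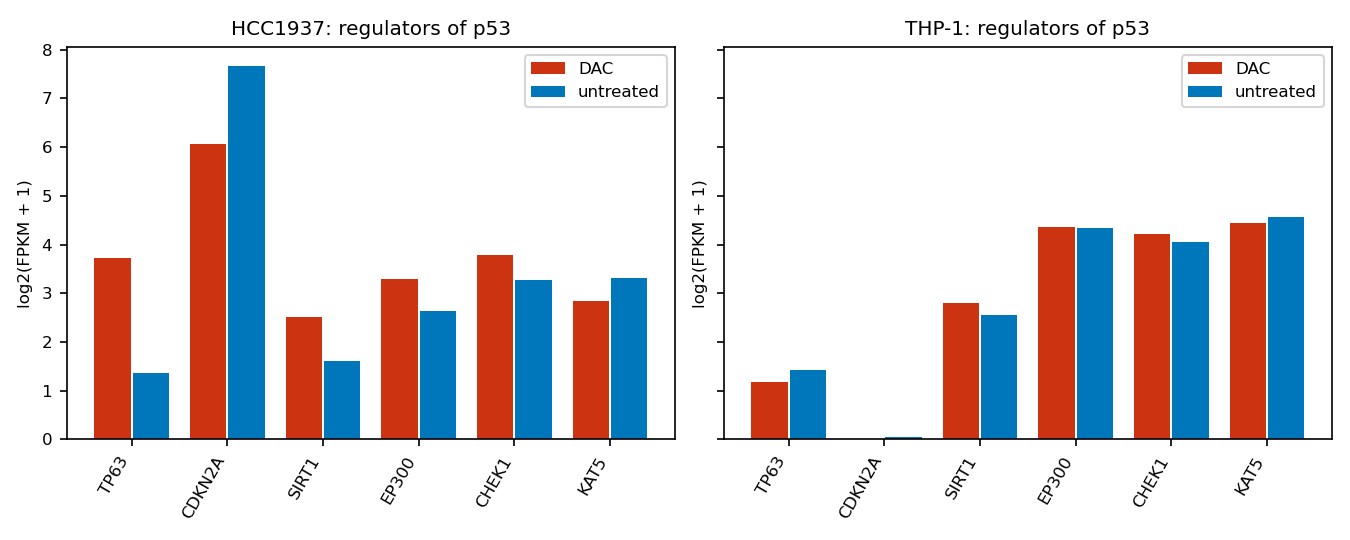
Levels of 6 regulators of p53 by library as log2(FPKM + 1), with HCC1937 on the left and THP-1 on the right, as bars from 0 with DAC left of untreated, 1 library each. TP63 is higher with DAC (12.2 FPKM, against 1.56 untreated) and CDKN2A lower (66.3 FPKM, against 203 untreated) in HCC1937.

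Other direct p53 targets outside the 38 gave no rise in either line by the 2-fold rule on log2(FPKM + 1). Of 13 kept in HCC1937, LIF, a cytokine of the interleukin-6 family, fell to 10.9 FPKM with DAC, against 24.7 FPKM untreated, a difference of −1.11 and a ratio of 0.44 (0.40 to 0.48). In the same line NECTIN4, an adhesion protein, had 16.1 FPKM with DAC and 30.2 FPKM untreated (−0.87), a difference that passed 2-fold under both scalings, at −1.01 and −1.17. In HCC1937 TIGAR, a fructose bisphosphatase, had 1.68 FPKM with DAC and 0.52 FPKM untreated (0.82). Its ratio was 3.23 (2.25 to 4.78), and it was kept through the DAC library alone. With a pseudocount of 0.1 the TIGAR difference was 1.52, past 2-fold. RRM2B, the p53-inducible ribonucleotide reductase subunit, had 6.70 FPKM with DAC and 3.63 FPKM untreated in HCC1937 (0.73). The median difference in HCC1937 was 0.35, beside 0.19 for all genes, with 10 of 13 ratios above 1 and 2 below by counting, beside 51.1% and 21.6% of all genes. In THP-1, 9 were kept and none rose or fell, with a median of 0.08, beside 0.07 for all genes. The largest of these differences was that of TRIM22, an interferon-inducible ubiquitin ligase, with 11.4 FPKM with DAC and 6.49 FPKM untreated (0.73).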

How the data were processed

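Per the labels' protocols, mRNA was purified from total RNA for TruSeq libraries. The submitters' processing notes name FastQC, cutadapt, STAR, HTSeq and the build hg38; versions, gene annotation and strand use are not given in the sources used here. No unit is named in the deposited table. FPKM computed by the authors was assumed, because for short genes (50 to 250 bp) value times length in GENCODE 29 falls on whole multiples of 1 step, within 0.1 read, in 92.7% to 96.8% of genes. That step gives the depths. The deposited THP-1 columns lack a value in 37039 of 60612 lines and imply shorter gene lengths, so levels are compared between lines only roughly. Lines of 76 repeated symbols (1079 lines) were left out.

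Reads were estimated as FPKM times exon length times depth, with GENCODE 29 exon lengths over every transcript for HCC1937 and over RefSeq-linked transcripts for THP-1. limma 3.58.1 (R 4.3.3) was fitted to log2(FPKM + 1) of all genes, with an intensity trend and Benjamini-Hochberg adjustment, and was tested on simulated data, as was the size rule. Python 3.11.15, pandas 2.3.3, numpy 2.4.6 and scipy 1.17.1 were used. Alternatives were 2 scalings within each pair, pseudocounts, filters, a 1.5-fold rule and, chosen after seeing the data, the counting interval as a rule. Promoters were matched to RefSeq by symbol, 33 of 38. The 38 targets, the other gene lists and the marker lists were chosen with earlier results of these data known. All 38 targets are named, and from each other list the genes that rose or fell and, in each line, at most 4 more with the largest difference. TP73, and the cell cycle genes with a ratio below 1 in HCC1937, are named in addition. 1 listed regulator is not reported here.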

Additional observations from a re-analysis of the deposited data

Results flagged for a closer look

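For 4 of the 31 targets kept in both lines, the ratio of DAC over untreated lay on opposite sides of 1 in the 2 lines. Their counting intervals excluded 1 in each line. By this rule 51.1% of all genes were above 1 and 21.6% below in HCC1937, and 33.1% above and 14% below in THP-1. The share of all genes that split between the lines was not counted. With 1 library per group, different doses and different times, the difference between the lines was not tested. CES2 had a ratio of 1.53 in HCC1937 and 0.899 in THP-1. PHLDA3, TRIAP1 and TNFAIP8 differed the other way, with ratios of 0.922, 0.827 and 0.654 in HCC1937 and of 2.48, 1.19 and 1.17 in THP-1. Of these, PHLDA3 reached 1.5-fold on log2(FPKM + 1) in THP-1 and CES2, TRIAP1 and TNFAIP8 in neither line. The intervals cover counting error only.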

How the results depend on the processing

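In HCC1937 the 4 targets that rose became 2 under median-of-ratios and 2 under upper-quartile scaling (TP53I3 and PGF in each), 2 at a mean of 5 FPKM or more, 0 with a pseudocount of 10, and 8 at 1.5-fold, beside 21.9% of all genes at 1.5-fold. With a pseudocount of 0.1 there were 5, ZMAT3 added, and without the filter 4. By counting, 29 differed, 22 higher and 7 lower, beside 51.1% of all genes higher and 21.6% lower. In THP-1 the count of 0 became 2 (PGF and PHLDA3) with a pseudocount of 0.1 and 2 at 1.5-fold, beside 3.3% of all genes. By counting, the THP-1 count became 19, 18 higher and 1 lower, beside 33.1% of all genes higher and 14% lower. The THP-1 count was 0 under both scalings, a pseudocount of 10, no filter and the mean filter. For the scalings, pseudocounts and filters the share of all genes is not given here. TP63 in HCC1937 gave 0.94 and LIF −0.73 with a pseudocount of 10. limma called 0 targets in each of its 6 alternatives, with 1 to 4 at an unadjusted p under 0.05 and a lowest adjusted p of 0.293 to 1.0. Apart from the construction of the scalings, pseudocounts, filters and thresholds, the cause of these changes was not tested. The labels give no replicate numbers; the pairing in limma is by line, and without that block 0 targets were called as well. With 1 library per group no library was left out. Targets near 1 FPKM rest on few reads, such as the 18 of PGF in untreated HCC1937.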

Other observations

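Genes lowered through CDKN1A and the DREAM complex, the repressor of cell cycle genes in resting cells, were listed for comparison with CDKN1A. All 16 were kept in both lines, and none rose or fell by 2-fold. In HCC1937, 13 had a ratio above 1 by counting and 3 below, with a median difference of 0.26, beside 0.19 for all genes, which became −0.04 under upper-quartile scaling. By the same rule 51.1% of all genes were above 1 and 21.6% below, and the DREAM genes with a difference above 0 were 13 as deposited, 10 under median-of-ratios and 6 under upper-quartile scaling. MYBL2, a cell cycle activator, had 226 FPKM with DAC and 115 FPKM untreated there (0.97). In HCC1937 E2F1, the activator of S phase genes, had 82.9 FPKM with DAC and 50.1 FPKM untreated (0.72), and MCM2, a subunit of the replicative helicase, 108 FPKM with DAC and 67.1 FPKM untreated (0.67). The 3 with a ratio below 1 there were PLK1, at 0.77 (0.73 to 0.81), and CDC20 and CCNB2, each at 0.90.

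In THP-1, 8 of the 16 had a ratio below 1 by counting and 3 above, with a median difference of −0.08, beside 0.07 for all genes. By the same rule 33.1% of all genes were above 1 and 14% below. CDC20, the activator of the anaphase-promoting complex, had 385 FPKM with DAC and 493 FPKM untreated, a ratio of 0.78 (0.76 to 0.80). PLK1, a mitotic kinase, had 94.8 FPKM with DAC and 121 FPKM untreated, a ratio of 0.78 (0.75 to 0.82). CDK1 and RRM2 differed the other way in THP-1, by like amounts. CDK1 had 70.0 FPKM with DAC and 54.6 FPKM untreated, a ratio of 1.28 (1.21 to 1.36). RRM2 had 41.7 FPKM with DAC and 32.8 FPKM untreated, a ratio of 1.27 (1.20 to 1.34). Which cell cycle phase the cultures were in was not measured.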
